A study of Mus musculus with 4 samples.

Results

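The cells described here are 823 cells that the authors marked as doublets and left without a cell class. They make up 5.33% of the 15451 deposited cells, and the other 14628 cells carry 1 of 9 classes. The members were found by the authors' doublet mark, and all 823 matched a column of the count table by barcode. The cells are CD45+ immune cells sorted from the cortex of mice aged 18 months. ADAM mice are APP/PS1 Axl-/- Mertk-/-, without 2 receptor tyrosine kinases by which phagocytes recognise dying cells, and AD mice are APP/PS1 with both receptors. Both genotypes carry the amyloid-forming APP/PS1 transgenes. There were 2 libraries per genotype, called ADAM 1, ADAM 2, AD 1 and AD 2, and 2 cortices were pooled for each library. Single mice inside a pool could not be told apart. Axl-/- and Mertk-/- are written without a Cre driver in the labels, and every cell of an ADAM mouse carries them.

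A doublet is a droplet in which 2 cells were captured under the same barcode, so that their transcripts are counted as a single cell. A droplet with cells of different types (a heterotypic doublet) shows markers that no single cell type makes together. A droplet with cells of the same type shows no such mixture and differs mainly in its number of transcripts. The cells that CD45 sorting takes from cortex are chiefly microglia, the resident macrophages of brain tissue, with T cells, natural killer (NK) cells, monocytes, border macrophages, neutrophils and B cells beside them. Amyloid plaques change microglia from a homeostatic form, marked by genes such as P2ry12 and Tmem119, to a plaque-associated form, marked by genes such as Apoe, Cst7 and Gpnmb. The making of the doublet mark is not described in the sources, and it may rest on the same counts. Differences between flagged and classed cells are therefore given as descriptions, with no test.

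Flagged cells were deeper than classed cells in every library. Counts are of unique molecular identifiers (UMIs), each of which stands for a captured transcript. The median was 14593 UMIs in ADAM 1, 14686 in ADAM 2, 11478 in AD 1 and 13495 in AD 2 for flagged cells. In classed cells it was 4938.5, 4599, 3600 and 5336.5 UMIs in the same order of libraries. The ratio of these medians was 2.95, 3.19, 3.19 and 2.53, a mean of 2.97 ± 0.312 (SD, n = 4 libraries), and the ranges of flagged and classed medians did not overlap. The median number of genes detected was 3595.5, 3590, 3201 and 3442 in flagged cells and 1774.5, 1629, 1410 and 1903 in classed cells. Depth alone did not mark a flagged cell. At or above the flagged median of their own library lay 152, 165, 79 and 259 classed cells, of which 118, 94, 70 and 230 were microglia. Flagged cells held 13.5%, 18.3%, 10.6% and 8.69% of all UMIs of their libraries. Among all cells, 48 shared a barcode with a cell of another library, and 0 of these were flagged.

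**Figure D1:**
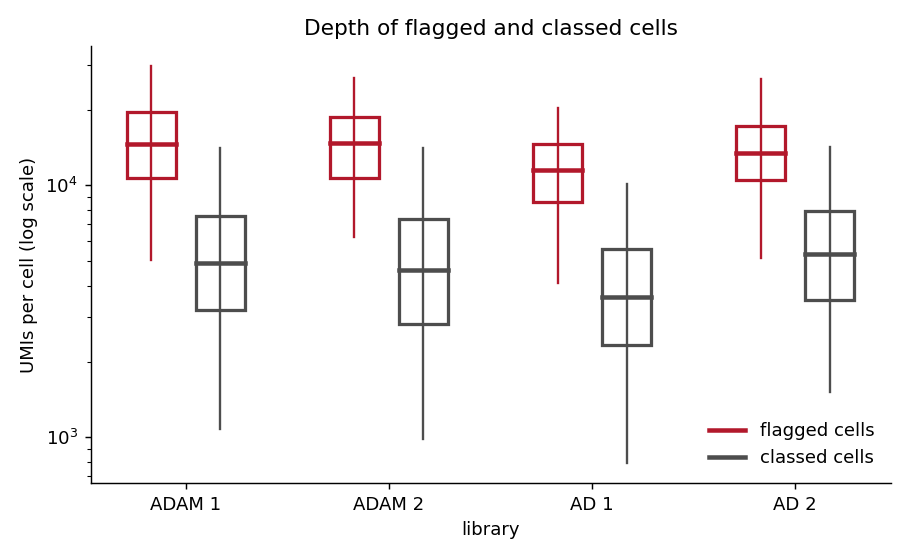
UMIs per cell on a log axis for flagged and classed cells of each library; the thick line is the median, the box holds the middle 50% of the cells and the thin line runs over 90% of them. The flagged medians lie between 11478 and 14686 UMIs and the classed medians between 3600 and 5336.5 UMIs.

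The authors also deposited a doublet score for each cell. The highest score of a classed cell was 1.39775, and 773 flagged cells scored above it, the lowest of them at 1.39834. Just below that level, 197 classed cells scored above 1.3. The other 50 flagged cells scored below the highest classed cell, and their median depth was 4506.5 UMIs, against 14128 UMIs for the 773. Of the 47 low-scoring flagged cells deep enough for the marker rule described next, 45 held microglia and T or NK cell markers together and no other lineage, in 12, 9, 11 and 13 cells of ADAM 1, ADAM 2, AD 1 and AD 2. The low-scoring flagged cells were thus almost all of a single mixture and were present in every library.

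A larger share of cells was flagged in both ADAM libraries than in either AD library. The share was 5.48% in ADAM 1 (95% exact binomial interval 4.75% to 6.27%) and 7.63% in ADAM 2 (6.83% to 8.49%). It was 4.13% in AD 1 (3.48% to 4.88%) and 3.98% in AD 2 (3.43% to 4.59%). The mean was 6.55% ± 1.52 in ADAM and 4.06% ± 0.106 in AD (SD, n = 2 each), a difference of 2.49 percentage points with a two-sided exact permutation p of 0.333. This is the smallest p that 2 against 2 libraries allow, so the difference could not pass a threshold. A separate mark of the authors names 216 classed cells as doublets of microglia and T cells, 0 in ADAM 1, 4 in ADAM 2, 209 in AD 1 and 3 in AD 2. Their median depth in AD 1 was 812 UMIs. With these added, the share was 5.48% and 7.73% in ADAM and 10.6% and 4.05% in AD, and the difference turned to -0.714 points.

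Each cell was then read for 8 lineages by fixed marker lists: microglia, T/NK, monocyte, macrophage, neutrophil, B cell, endothelial and oligodendrocyte. To set cells of unequal depth side by side, each was thinned to 2000 UMIs, and a lineage was called held when at least 2 of its markers had a UMI. The thinning kept 820 of the 823 flagged cells and 12805 of the 14628 classed cells. It left out 0 flagged cells in ADAM 1 and ADAM 2, 2 in AD 1 and 1 in AD 2. At least 2 lineages were held by 38.8% and 57.1% of flagged cells in ADAM 1 and ADAM 2, and by 54.5% and 43.9% in AD 1 and AD 2. In classed cells the shares were 12.4%, 23.5%, 9.04% and 8.32% in the same order. Over all libraries this was 405 of 820 flagged cells (49.4%) and 1700 of 12805 classed cells (13.3%). Without thinning, the shares were 69.9%, 79.8%, 70.1% and 66.3% of flagged cells and 27.9%, 39.7%, 20.8% and 23.2% of classed cells. The classed share depended on the class. It was 2.70% in microglia, 19.7% in T/NK cells, 43.8% in monocytes, 59.6% in macrophages, 41.8% in B cells and 77.8% in neutrophils. Free RNA in droplets can add transcripts of an abundant cell type to other cells, and its part in these shares was not tested, so the level of each lineage is given beside its presence.

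The microglia lineage was held, alone or with another, by most flagged cells. A microglia lineage with no other was found in 408 of 820 flagged cells, in 59.2%, 42.0%, 45.5% and 56.1% of those in ADAM 1, ADAM 2, AD 1 and AD 2. Microglia with T/NK and nothing else came next with 214 cells, followed by microglia with neutrophil markers (69), with monocyte and neutrophil markers (43) and with monocyte markers (28). Only 3 flagged cells held no lineage. Mixtures without microglia were rare: 1 cell held T/NK with macrophage markers and 1 cell monocyte with endothelial markers.

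**Figure D2:**
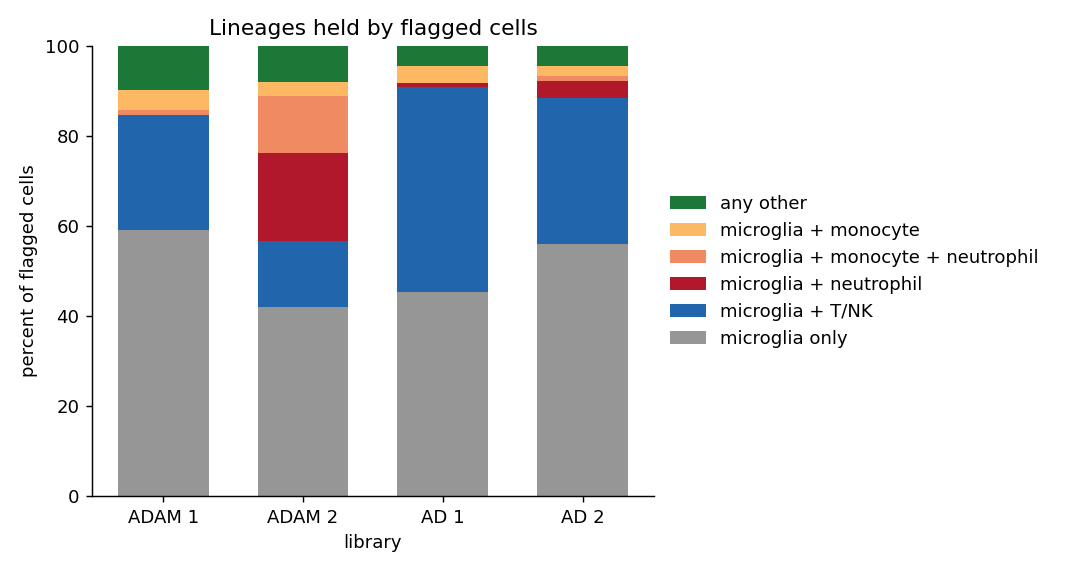
Percent of the thinned flagged cells of each library that held each set of lineages, stacked to 100. Microglia with T/NK markers (blue) are present in every library, while the mixtures with neutrophil markers (red and orange) stand out in ADAM 2.

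Microglia and T/NK markers, with or without a further lineage, met in 235 flagged cells. There were 55 such cells in ADAM 1, 55 in ADAM 2, 63 in AD 1 and 62 in AD 2. As a share of flagged cells this was 28.1% and 17.6% in ADAM and 47.7% and 34.4% in AD, so that the genotypes did not overlap. The mean was 22.8% ± 7.38 in ADAM and 41.1% ± 9.39 in AD (SD, n = 2 each). The difference was -18.2 percentage points (two-sided exact permutation p = 0.333, and 1.0 after Benjamini-Hochberg adjustment over 20 lineage pairs). The count of such cells ran only from 55 to 63. Per 100 cells of the T/NK class, there were 8.11 and 7.46 such flagged cells in ADAM and 6.16 and 7.49 in AD. T/NK cells made up 20.05% and 19.5% of classed cells in ADAM and 32.9% and 19.0% in AD.

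Few classed microglia held both lineages. Both lineages were found in 0.242% and 0.0555% of microglia of ADAM 1 and ADAM 2 in 0.418% of those of AD 1, and in 0 of 2914 of those of AD 2, which allows up to 0.103%. In the T/NK class, both lineages were found in 29.0% and 19.1% of ADAM cells and in 11.4% and 15.2% of AD cells, since microglia transcripts were present there at a low level. Level set the flagged cells apart from that class. Per 2000 UMIs, flagged cells with both lineages had a median of 23 UMIs on the 10 microglia markers (interquartile range 15 to 31). The 515 T/NK-class cells that held both lineages had a median of 2 (2 to 4), and classed microglia had 42 (33 to 51). On the 10 T/NK markers, the median was 6 UMIs in the flagged cells (4 to 10), 17 in the T/NK-class cells that held both lineages (13 to 21), and 0 in classed microglia. The flagged cells therefore lay between the classes on both lists. They were chosen for at least 2 markers of each list, so their T/NK level above that of classed microglia was set by the choice. The median depths were 9430, 3345 and 6001 UMIs for these flagged cells, those T/NK-class cells and classed microglia.

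The 214 flagged cells that held only microglia and T/NK markers had close to the depth of a microglia and a T/NK cell added together. Their median depth was 9166.5, 9391, 8605.5 and 8972.5 UMIs in ADAM 1, ADAM 2, AD 1 and AD 2. The class medians of microglia and T/NK cells summed to 8878, 9114.5, 7645 and 9717.5 UMIs. Their microglia markers stood at 63.5%, 61.1%, 64.7% and 61.2% of the level in microglia, in CPM (counts scaled to library size). Their T/NK markers stood at 40.8%, 36.2%, 36.8% and 38.0% of the level in the T/NK class. These percentages summed to 104%, 97.4%, 101% and 99.2%. The cells were chosen with these markers, so the same was computed for listed genes that the choice did not use. On 6 further homeostatic microglia genes the level was 73.0%, 68.0%, 80.04% and 62.3% of that in microglia. On 12 further T and NK effector genes it was 41.6%, 28.8%, 27.9% and 36.5% of that in T/NK cells. The sums were 115%, 96.8%, 108% and 98.8%. The T/NK class itself had 763, 655, 726 and 652 CPM on the 6 microglia genes, against 7522, 6604, 7486 and 8240 CPM in microglia. Microglia had 57.0 to 91.4 CPM on the 12 effector genes. The percentages are therefore not fractions from a single cell type.

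On the T cell side, Cd8a was found in more of these cells than Cd4. Of the 214 cells, 80 had a UMI of Cd8a, a chain of the CD8 co-receptor of cytotoxic T cells, and none of Cd4, the co-receptor of helper T cells. Another 8 had Cd4 without Cd8a, and 0 of 214 had UMIs of both at 2000 UMIs per cell, which allows up to 1.40% with such UMIs at that depth. Unthinned, 3 of all 823 flagged cells had UMIs of both. Cd8a was found in 46.0% and 39.1% of the cells in ADAM and in 36.7% and 29.3% in AD, against 57.3%, 63.2%, 47.5% and 62.7% of the T/NK class in ADAM 1, ADAM 2, AD 1 and AD 2. Nkg7, a granule gene of cytotoxic T and NK cells, was found in 76.2% of them. Ncr1, a receptor of NK cells, was found in 2 of 214 cells. C1qa and Cd3e, a signalling chain of the T cell receptor, were detected together in 123 of 820 flagged cells and 6.01% of classed cells, at 2000 UMIs each. That pair was found in 0.267% of the microglia class and 25.03% of the T/NK class. This microglia share includes the cells that the authors marked as microglia and T cell doublets. Without those cells, Cd3e alone was found in 12 of 8222 classed microglia (0.146%).

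The mixture of microglia with neutrophil markers rested on ADAM 2. It was held by 107 of the 121 flagged cells with this pair, against 2 in ADAM 1, 1 in AD 1 and 11 in AD 2. As a share of flagged cells it was 1.02% and 34.3% in ADAM and 0.758% and 6.11% in AD (two-sided exact permutation p = 0.667). Neutrophils of the authors' class numbered 11 and 580 in ADAM and 30 and 136 in AD. There were 18.2 and 18.4 such flagged cells per 100 neutrophils in ADAM, and 3.33 and 8.09 in AD, the value of ADAM 1 resting on 11 neutrophils and that of AD 1 on 30. Retnlg, a secreted protein of mature neutrophils, stood at 18.2 and 1801 CPM in all flagged cells of ADAM 1 and ADAM 2, and at 2.52 and 185 CPM in those of AD 1 and AD 2. In ADAM 2, 1.94% of classed microglia also held the neutrophil lineage.

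**Figure D3:**
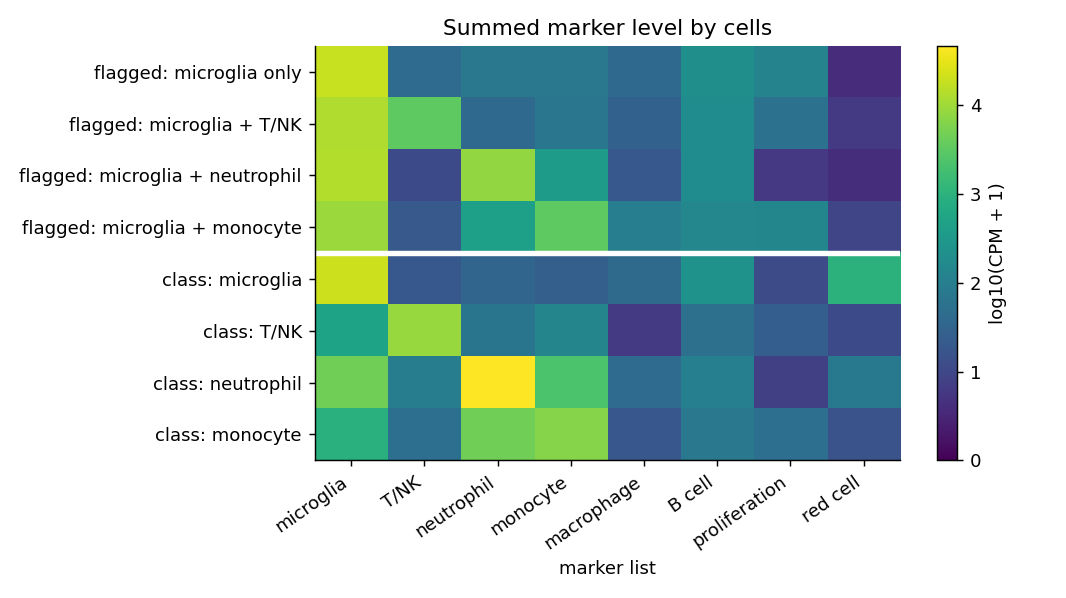
Summed level of each marker list, as log10(CPM + 1), in the 4 most frequent kinds of flagged cells by exact lineages apart from the triple mixture (upper rows) and in 4 classes (lower rows), over all libraries. Each flagged kind with a second lineage is bright for microglia and for that lineage, at levels between those of the classes. The kinds were defined by these same markers, so the presence of both lineages was set by the choice.

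Neutrophil transcripts were a smaller part of these cells than T/NK transcripts were of the T cell mixtures. In the 61 ADAM 2 cells that held only microglia and neutrophil markers, the microglia markers stood at 76.2% of their level in microglia and the neutrophil markers at 16.9% of their level in neutrophils. Neutrophils were shallow, with a median of 2691.5 UMIs in that library, against 5698.5 UMIs for microglia and 13037 UMIs for the flagged cells. The flagged cells were thus deeper than the class medians added together, at 8390 UMIs.

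Monocyte markers met microglia markers in 75 flagged cells, 12 in ADAM 1, 52 in ADAM 2, 5 in AD 1 and 6 in AD 2. Of these, 43 also held the neutrophil lineage, 39 of them in ADAM 2. Monocytes and neutrophils could not be cleanly told apart there. The monocyte and neutrophil lineages were held together by 60.7% of the monocyte class in ADAM 2. The monocyte gene Chil3 stood at 3492 CPM in monocytes and at 1056 CPM in neutrophils over all libraries. In cells that held only microglia and monocyte markers, microglia markers stood at 42.6% and 44.2% of the microglia level in ADAM 1 and ADAM 2, and at 55.0% in AD 1. Monocyte markers stood at 85.0%, 45.7% and 63.5% of the monocyte level in the same 3 libraries, from 9, 10 and 5 cells.

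Macrophage markers met microglia markers in 10 and 5 flagged cells of ADAM 1 and ADAM 2, and in 0 and 2 of AD 1 and AD 2. Mrc1, the mannose receptor of border macrophages, stood at 95.9 and 17.5 CPM in flagged cells of ADAM and at 4.41 and 15.8 CPM in those of AD, high in ADAM 1 alone. The chemokine gene Pf4 stood at 95.6 and 33.98 CPM in ADAM and at 15.1 and 16.2 CPM in AD. The B cell list was held with microglia markers by 21 flagged cells, but classed microglia also expressed Ighm, an immunoglobulin heavy chain gene, at 209 CPM. Flagged cells had 176, 158, 194 and 174 CPM of Ighm in ADAM 1, ADAM 2, AD 1 and AD 2, close to that level in every library. UMIs of Cd3e and Mrc1 met in 0 of 820 flagged cells at 2000 UMIs, and in 13 of 823 flagged cells (1.58%) and 0.178% of classed cells unthinned.

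The 408 flagged cells that held the microglia lineage only showed no second cell type by the marker rule. Their median was 16860 and 15571 UMIs in ADAM and 12837 and 15861 UMIs in AD. Microglia of the authors' state 0, which was high in homeostatic genes, had 5636.5 and 5769 UMIs in ADAM and 4266 and 5946 UMIs in AD. Those of state 5, which was high in plaque-associated genes, had 6784 and 6972.5 UMIs in ADAM and 6467 and 7983.5 UMIs in AD. Trac, the constant part of a T cell receptor chain, was found in 1 of the 408 cells, and Nkg7 in 1.72% of them.

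These microglia-only cells lay between state 0 and state 5 on both gene lists in every library. Per 2000 UMIs, the median on 15 homeostatic genes was 43.5 and 38 UMIs in ADAM and 43 and 42 UMIs in AD. It was 62, 52, 70 and 60 UMIs in state 0 and 34, 28, 36 and 30 UMIs in state 5, in the order ADAM 1, ADAM 2, AD 1, AD 2. On 20 plaque-associated genes the median was 94.5 and 111 UMIs in ADAM and 127 and 107 UMIs in AD. It was 42, 47, 38 and 39 UMIs in state 0 and 163.5, 183, 212 and 205 UMIs in state 5. The ADAM and AD libraries overlapped closely on the homeostatic list, and ADAM 1 was lowest and AD 1 highest on the plaque list.

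**Figure D4:**
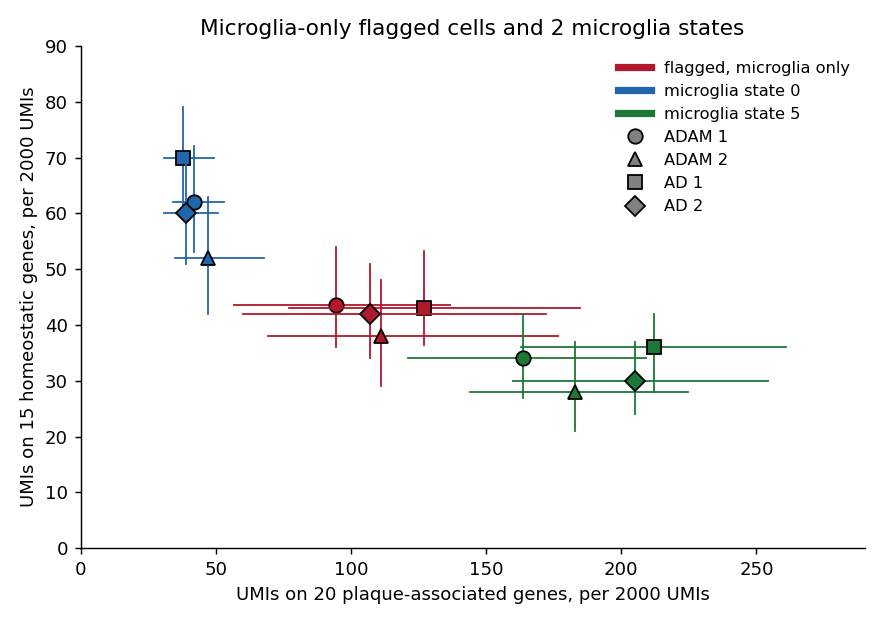
Median UMIs on 15 homeostatic genes against 20 plaque-associated genes, per 2000 UMIs, for microglia-only flagged cells and for microglia of states 0 and 5 in each library; lines span the middle 50% of the cells. The flagged cells of each library lie between its 2 states, at 94.5 to 127 UMIs on the plaque-associated genes.

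Genes of opposite states were detected together in the microglia-only flagged cells more often than in either state alone. Tmem119, a homeostatic membrane protein of microglia, and Cst7, a protease inhibitor of plaque-associated microglia, were both found in 33.6% and 43.5% of these cells in ADAM and in 38.3% and 29.7% in AD. The share was 21.9%, 17.2%, 15.1% and 13.1% in state 0 and 18.4%, 13.5%, 15.04% and 9.60% in state 5. All cells had been thinned to the same depth, and the flagged share was higher in each library. The purine receptor gene P2ry12 and Gpnmb, a lysosomal membrane protein, gave a different picture. They met in 14.7%, 20.6%, 25% and 16.8% of the flagged cells and in 16.8%, 13.5%, 20.9% and 14.97% of state 5, ranges that overlapped, but in no more than 1.77% of state 0.

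The mixtures with T/NK cells were below state 0 on both lists in every library. Per 2000 UMIs, their median on the 20 plaque-associated genes was 28.5 and 44.5 UMIs in ADAM and 27.5 and 30.5 UMIs in AD, against 42 and 47 UMIs in ADAM and 38 and 39 UMIs in AD for state 0. Their homeostatic median was 32 and 23 UMIs in ADAM and 31.5 and 29 UMIs in AD, against 62 and 52 UMIs in ADAM and 70 and 60 UMIs in AD for state 0. The T/NK transcripts of these cells take part of the 2000 UMIs, and their microglia markers stood at 61.1% to 64.7% of the class level, so these medians are not levels of the microglia alone.

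The genotypes were compared on UMIs summed over all flagged cells of a library, with the quasi-likelihood test of edgeR on all 10321 genes that passed its filter. The test called 29 genes (0.281% of those tested), 26 higher in ADAM (0.252%) and 3 lower in ADAM (0.0291%), at a Benjamini-Hochberg adjusted p under 0.05, and 661 genes had an unadjusted p under 0.05. Values per gene are in CPM after scaling between libraries by edgeR's TMM method. Leaving out AD 1 or AD 2 left 3 and 4 calls, while leaving out ADAM 1 or ADAM 2 gave 272 and 96. Spint1 and Gatm were called in each of these 4 fits.

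Axl, the deleted receptor that binds the bridging ligand Gas6, stood at 8.94 and 5.01 CPM in ADAM and at 91.1 and 80.4 CPM in AD. Its log2 fold was -3.66 (SE 0.25, adjusted p = 2.1e-04 by edgeR), and both ADAM libraries were below both AD libraries. Mertk, the other deleted receptor, stood at 203 and 235 CPM in ADAM and at 242 and 219 CPM in AD, and overlapped. The counts are of transcript 3′ ends, and the sources do not say whether the deleted part of Mertk would be read there, so its level checks nothing. The ligand genes Gas6 (log2 fold 0.12) and Pros1 (0.05) did not pass the test. The related receptor gene Tyro3 had 0 UMIs in the microglia-only flagged cells.

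Beside Axl, the 4 genes with the lowest adjusted p were Spint1, Gatm, Eif3j1 and Eif3j2. Spint1, an inhibitor of serine proteases, had 0 and 2 UMIs in flagged cells of ADAM 1 and ADAM 2, against 127 and 200 UMIs in those of AD 1 and AD 2. As a ratio of counts, AD was 310-fold higher than ADAM (95% exact interval 85.2 to 2572, counting error only; edgeR adjusted p = 1.2e-05). Gatm, an enzyme of creatine synthesis, stood at 739 and 624 CPM in ADAM and at 91.7 and 106 CPM in AD (log2 fold 2.78, SE 0.15, edgeR adjusted p = 1.9e-05). The translation factor gene Eif3j1 stood at 20.1 and 25.3 CPM in ADAM and at 106 and 102 CPM in AD (log2 fold -2.18, edgeR adjusted p = 2.6e-04). Its near copy Eif3j2 stood at 33.8 and 38.1 CPM in ADAM and at 3.08 and 1.16 CPM in AD (log2 fold 4.20, edgeR adjusted p = 5.0e-04). Reads may be shared between Eif3j1 and Eif3j2, and their values are uncertain for that reason. In GENCODE vM21 on GRCm38, Spint1 lies at chr2:119237362-119249527, Eif3j1 at chr2:122028546-122056598, Gatm at chr2:122594467-122611303 and Mertk at chr2:128698956-128802894. The classed microglia of the same libraries gave log2 folds of -9.58 for Spint1, 2.99 for Gatm, -2.04 for Eif3j1 and 4.52 for Eif3j2.

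**Figure D5:**
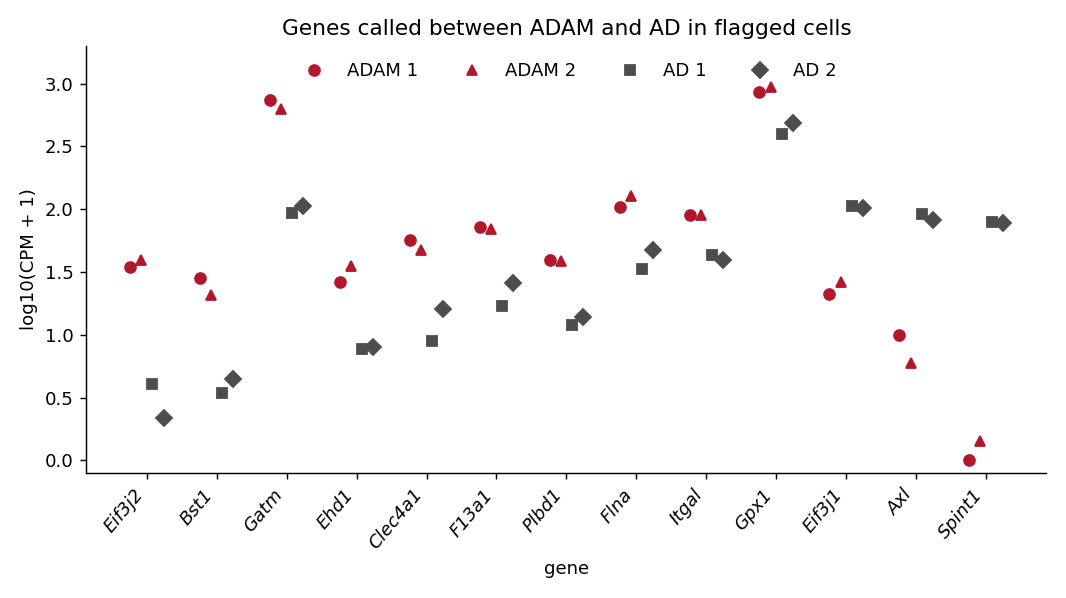
Level in flagged cells, as log10(CPM + 1), of the called genes that the naming rule took by lowest p (ADAM libraries red, AD libraries grey). Genes run from the highest fold to the lowest, and Ifitm3, named from the interferon list, is not drawn. The rule took only genes whose genotypes did not overlap, so the separation of the libraries was a condition. The genes run from Eif3j2 (33.8 and 38.1 CPM in ADAM, 3.08 and 1.16 CPM in AD) to Spint1 (0 and 0.436 CPM in ADAM, 78.2 and 77.3 CPM in AD).

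Another higher gene taken by the naming rule, F13a1, a subunit of a clotting factor found in monocytes and macrophages, stood at 70.8 and 68.6 CPM in ADAM and at 16 and 24.7 CPM in AD (log2 fold 1.74, edgeR adjusted p = 0.0116). By class, F13a1 stood at 520 CPM in macrophages and 339 CPM in monocytes. Beside F13a1, Gatm, Eif3j2 and Ifitm3, the rule took Bst1, Plbd1, Ehd1, Itgal, Flna, Clec4a1 and Gpx1, with log2 folds of 1.03 (Gpx1) to 2.92 (Bst1). Among the 7 classes compared, Bst1 and Ehd1 were highest in neutrophils (82.0 and 120 CPM) and the other 5 in monocytes. Itgal, an integrin chain of leukocytes, stood at 89.0 and 88.6 CPM in ADAM and at 42.5 and 38.3 CPM in AD. The selenium enzyme gene Gpx1 stood at 860 and 936 CPM in ADAM and at 396 and 482 CPM in AD. Fcgr4 and C4b were chosen after their values were seen. The Fc receptor gene Fcgr4 stood at 94.5 and 86.3 CPM in ADAM and at 18.5 and 31.7 CPM in AD. The complement gene C4b stood at 38.0 and 70.1 CPM in ADAM and at 5.54 and 5.80 CPM in AD, and its highest level by class was in macrophages.

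The marker sums of monocytes and neutrophils were by far the highest in ADAM 2, while F13a1 and Itgal were at like levels in both ADAM libraries. The 8 monocyte markers summed to 261 and 1150 CPM in flagged cells of ADAM 1 and ADAM 2 and to 214 and 209 CPM in those of AD 1 and AD 2, and all 8 had UMIs in each library. The 10 neutrophil markers summed to 74.2 and 4029 CPM in ADAM and to 10.1 and 250 CPM in AD. Camp, Ngp, Ltf and Ly6g were at 0 UMIs in ADAM 1, Ltf, Ly6g and Wfdc21 in AD 1, and Camp, Ngp and Ltf in AD 2. All 8 monocyte markers had a positive fold (median log2 fold 1.64), but only the matrix gene Fn1 passed the test. All 6 tested neutrophil markers had a positive fold (median 3.62) and 0 passed. When flagged cells with neutrophil or monocyte lineages were left out, a choice made after seeing the data, 10 genes were called, 6 of them among the 29. In these cells Gatm, Spint1, Axl, Eif3j1, Eif3j2 and C4b passed, while F13a1, Plbd1, Fcgr4, Itgal and Fn1 did not. Their log2 folds were then 1.81 for F13a1 (1.74 with all flagged cells), 1.93 for Plbd1 (1.66), 1.69 for Fcgr4 (1.804), 0.87 for Itgal (1.14) and 0.34 for Fn1 (1.31). Of these, F13a1, Plbd1 and Fcgr4 had folds of about the same size without those cells, and Itgal and Fn1 had smaller ones. Other called genes went both ways, from 1.05 to 0.21 for Ahnak and 1.52 to 0.85 for Flna, but 2.26 to 2.62 for Clec12a. Mixtures of microglia with macrophage markers stayed in, as did 3 cells of ADAM 1 that held no lineage. The ADAM cell with most F13a1 held microglia and macrophage markers (52 of 537 UMIs). The ADAM cells with most Plbd1 (16 of 293 UMIs), Itgal (35 of 686) and Fcgr4 (56 of 692) held no lineage. These folds are therefore not free of mixtures. In flagged cells holding microglia only, the log2 folds were 1.71 for F13a1, 0.80 for Plbd1, 1.01 for Fcgr4, 1.79 for Itgal and 1.11 for Fn1. There Itgal (edgeR adjusted p = 0.0258) and Fcgr4 (edgeR adjusted p = 0.0444) passed, and F13a1, Plbd1 and Fn1 did not. The fold of Itgal was thus smaller in the one subset and larger in the other. By class, 20 of the 26 genes called higher in ADAM were highest in monocytes. The same share was not computed over all tested genes, so this count does not show an excess of monocyte genes. What sets these folds was not tested. Fewer cells of a type and less RNA per cell cannot be told apart in such sums.

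The gene lists for microglia, T cells and inflammation had almost no called member. In the plaque-associated list, 7 of 20 genes had a positive fold (median log2 fold -0.07), and Axl alone passed, lower in ADAM. In the homeostatic list, 0 of 15 were positive and 0 passed (median -0.19), with the fractalkine receptor gene Cx3cr1 at 1992 and 2145 CPM in ADAM and at 2358 and 2280 CPM in AD. In the T and NK effector list, 0 of 17 tested genes were positive and 0 passed (median -0.91). Nkg7 stood at 159 and 96.9 CPM in ADAM and at 282 and 256 CPM in AD, in the same direction as the share of T/NK mixtures. Its edgeR adjusted p was 0.338 with all libraries, 8.7e-05 without ADAM 1, 0.0370 without ADAM 2, 0.998 without AD 1 and 0.762 without AD 2. It also passed with DESeq2 (adjusted p = 0.00702), with the replicate block (edgeR adjusted p = 0.0149), with no filter on low counts (edgeR adjusted p = 8.73e-11) and without the neutrophil and monocyte mixtures (edgeR adjusted p = 0.0129). The interferon list had 9 of 16 positive (median 0.14), and Ifitm3, an interferon-induced membrane protein, rose (536 and 728 CPM in ADAM, 326 and 308 CPM in AD, edgeR adjusted p = 0.0354). Positive folds were found in 12 of 12 inflammatory cytokine genes (median 0.57), 10 of 13 immediate early genes (0.24), 10 of 12 cell cycle genes (0.37) and 5 of 7 MHC class II genes (0.31), and 0 of these passed. Of all 10321 genes tested, 5163 had a positive fold. Tox, a regulator of exhausted T cells, had an adjusted p of 0.0503 by edgeR, at 9.57 and 8.93 CPM in ADAM and at 33.8 and 22.4 CPM in AD.

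Within the 235 flagged cells that held microglia and T/NK markers, the lists of T cell genes had median folds near 0 between genotypes, and 0 of their genes passed. The 10 T/NK markers had a median log2 fold of -0.07 (4 of 10 positive) and the 17 tested effector genes of -0.02 (8 of 17). The cells were chosen by these 10 markers, and some of the markers, such as Nkg7, are also on the effector list. The choice can make marker levels alike in both genotypes, so these folds are descriptions and do not test for a genotype difference. Nkg7 stood at 820 and 745 CPM in ADAM and at 738 and 1091 CPM in AD. Of 6532 genes tested by edgeR, 10 were called (0.153%), 6 higher (0.0919%) and 4 lower in ADAM (0.0612%), and 304 had an unadjusted p under 0.05. DESeq2 called 5. Also among the 29 above were 7 of the 10, Gatm, Spint1, Axl, Eif3j1, Eif3j2, Ifitm3 and Fcgr4. Of these 7, Eif3j2, Ifitm3 and Fcgr4 were not called by DESeq2 in the microglia and T/NK cells. Gatm stood at 601 and 522 CPM in ADAM and at 83.9 and 88.3 CPM in AD. Spint1 had 0 UMIs in ADAM and 80 in AD, so that AD was at least 25.8-fold higher at a floor of 3 UMIs over the group. Axl had 3 UMIs in ADAM and 69 in AD, 22.2-fold higher in AD (95% exact interval 7.29 to 110).

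Of the other 3 called genes of these cells, Igkc and Ccl7 were carried by few cells. Igkc, an antibody light chain gene that stood at 26880 CPM in the B cell class, had 5 UMIs in 4 ADAM cells and 79 UMIs in 11 AD cells. A single AD cell, which also held the B cell lineage, had 41 of the 79. Ccl7, a chemokine gene that stood at 441 CPM in macrophages, had 68 UMIs in 4 ADAM cells and 11 UMIs in 6 AD cells, and the ADAM cell with most of it held the macrophage lineage too. Cybb, the catalytic subunit of the phagocyte oxidase, was spread over more cells. It stood at 101 and 158 CPM in ADAM and at 43.6 and 32.9 CPM in AD (edgeR adjusted p = 8.1e-04), with UMIs in 38 of 110 ADAM cells and 21 of 125 AD cells. The ADAM cell with most Cybb also held the monocyte lineage (23 of 142 UMIs). By class, Cybb stood at 1362 CPM in monocytes, 71.9 CPM in microglia and 7.57 CPM in T/NK cells. Flagged cells with microglia, T/NK and monocyte markers numbered 3, all in ADAM 2. Ccl7 and Cybb were not called by DESeq2, and Igkc was, at the highest of its adjusted p-values under the alternatives (0.00699).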

How the data were processed

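The authors deposited raw UMI counts of 16798 genes in 15451 cells, together with a table of cells holding their classes, microglia states, doublet mark, doublet score and mitochondrial percent. The submitters' processing notes list Seurat 3.2.1.9002, Cell Ranger 3.1.0 and the build mm10, with no role given. Libraries were made with 10x 3′ chemistry after CD45 sorting, per the labels' protocols. The sources name no filter on cells. The deposited percent was read for a check of quality only, and the score was the authors' own and was used to describe cells.

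Members, marker lists and gene lists were chosen with earlier results of these data known. Cells were thinned once to 2000 UMIs (seed 20), with Python 3.11.15. Counts of all flagged cells, and of those with microglia and T/NK markers, were summed per library and tested with edgeR 4.0.16 in R 4.3.3 (filterByExpr, TMM, robust quasi-likelihood fit, genotype as the only term). DESeq2 1.42.0 was an alternative. CPM of marker lists, of single markers and of classes are without TMM scaling. Genes were named by a rule: Axl, Mertk, Tyro3, Gas6 and Pros1; in each direction the 10 called genes of lowest p whose mean log2 CPM reached 3 and whose genotypes did not overlap (filled up to 5 by unadjusted p), without predicted and ribosomal protein genes; and the 2 highest members of each list. On simulated data for all flagged cells (10166 genes), the test recovered 100 of 100 genes changed 4-fold and 81 of 100 changed 2-fold, with 9 false calls. The simulation gave all genes the same fixed dispersion and drew the changed genes from those above the median level. It held no difference in mixtures between libraries, so these rates do not give the power in the real data. The edgeR p-values set the difference between genotypes against the spread between pools of the same genotype, estimated over both genotypes and partly shared across genes. The permutation p-values rest on the arrangements of the 4 library values only. Flagged cells and UMIs per library ran from 134 to 312 cells and from 1585689 to 4797174 UMIs. Intervals and floors (3 counts) cover counting error only.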

Additional observations from a re-analysis of the deposited data

How the results depend on the processing

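The share of flagged cells, ADAM minus AD, was 2.80 with classed cells as the denominator and 2.55 with high-scoring flagged cells only, and 1.42 to 3.57 with a library left out. It turned to -0.714 when the authors' microglia and T cell doublets were added, 209 of which were in AD 1. The depth ratio of 2.97 was 2.61 with means, 2.08 for genes and 2.53 against microglia, and 2.89 to 3.11 with a library left out. The mean share of flagged cells with at least 2 lineages, 48.6%, was 37.4% at 1000 UMIs, 71.5% unthinned, 37.4% with 3 markers and 77.6% with 1 marker, and 45.7% to 51.8% with a library left out. The difference in the microglia and T/NK share stayed between -19.8 and -15.5 points, and between -24.9 and -11.6 with a library left out. In all flagged cells, 29 genes were called. With the replicate block there were 120, with DESeq2 52, with no filter 309, and 3 to 272 with a library left out. There were 18 in microglia-only cells (7 of the 29) and 10 without neutrophil or monocyte lineages, both choices made after seeing the data. In microglia and T/NK cells, 10 genes were called, 14 with the replicate block, 5 with DESeq2, 35 with no filter, and 17 to 62 with a library left out. The replicate numbers are not tied to a batch or animal in the labels, and same-numbered libraries deviated together with a correlation of 0.169 and 0.122 in these sets. The causes were not tested. With a library left out, the lone library of its genotype is assumed to vary like those of the other genotype. Of the alternatives for named genes, 526 kept direction and side of the threshold, 48 lost the call, 20 gained it, 47 without a call moved and 0 called values reversed. Depth limits AD 1 most, with 134 flagged cells.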

Other observations

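The 7 proliferation markers summed to 109.6 CPM in all flagged cells and 123 CPM in those holding microglia only, against 10.5 CPM in the microglia class. The authors put proliferating cells in a class of their own (193 cells), apart from the microglia class, while flagged cells were not split by class. The microglia class is therefore not a like comparison for these markers. At least 2 of 7 proliferation markers were found in 18 of 820 thinned flagged cells (2.20%) and in 1.02% of classed cells. The division genes Top2a and Birc5 stood at 28.1 and 24.9 CPM in flagged cells of ADAM 1, 24.6 and 16.5 CPM in ADAM 2, 16.4 and 17.7 CPM in AD 1, and 10.4 and 10.4 CPM in AD 2. Markers of neurons, choroid plexus, pericytes, dendritic cells and red cells were held by 0 of 820 flagged cells at 2 markers each, which allows up to 0.366% with such UMIs at 2000 UMIs per cell, and those of astrocytes by 1. Unthinned, UMIs of all these lists were present in the 823 flagged cells, with sums of 36 UMIs for neurons, 94 for choroid plexus, 42 for pericytes, 44 for dendritic cells, 73 for red cells and 83 for astrocytes. The 5 red cell genes summed to 8.55 CPM in flagged cells of ADAM 2 and to 4508 CPM in the microglia class of the same library. S100a8, a calcium-binding protein abundant in neutrophils and monocytes, stood at 329 and 9547 CPM in flagged cells of ADAM and at 41.6 and 832 CPM in those of AD. Both S100a8 and S100a9 were found in 39.1% of flagged cells and 40.5% of classed cells of ADAM 2, so that in this library detection of these 2 genes did not separate flagged from classed cells.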
